A study of Mus musculus with 6 samples.

Results

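The 4 mouse ID genes, Id1, Id2, Id3 and Id4, were followed in a chromatin immunoprecipitation sequencing (ChIP-seq) experiment on POLR2A, the RPB1 subunit of RNA polymerase II (Pol II), in neural progenitor cells (NPCs). They were taken by name, and not by their values, although earlier results of these data were known. Each gene had a promoter, a gene body and a transcription end site (TES) entry, so the family contributed 12 of the 36321 gene regions and 4 of the 12107 genes counted. KO NPCs lacked Armc5 (labelled Armc5(-/-)), the substrate adaptor of a ubiquitin ligase that acts on POLR2A, and WT NPCs carried the gene, with 3 libraries for each genotype. Both were derived from ganglionic eminence tissue of e13.5 fetuses, labelled as strain 129 sv X CD1, were grown as neurospheres with epidermal growth factor and were used at the second passage. The study's methods describe a cross of CD1 with a strain other than 129 sv. Armc5 was deleted in the whole animal and not in NPCs alone. The libraries formed pairs of biological replicates, each with a KO and a WT culture, according to the study's methods. The comparison addressed whether Pol II on these genes differed between cells without and with Armc5. Armc5 itself was not analysed here.

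ID proteins (inhibitors of DNA binding) carry a helix-loop-helix domain but lack the basic stretch that contacts DNA. They pair with the E proteins (Tcf3, Tcf4 and Tcf12) and keep these from forming active dimers with tissue-restricted basic helix-loop-helix (bHLH) factors, many of which drive neuronal differentiation. In neural precursors they hold back differentiation, and Id1, Id2 and Id3 are classical targets of bone morphogenetic protein (BMP) signalling through the SMAD proteins.

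The position of the counting windows mattered for this family and is given first. The study's methods place the promoter window from 400 bases upstream to 100 bases downstream of the start site, the gene body window from there to 100 bases before the end, and the TES window from there to 2000 bases past the end. The annotation behind the starts and ends is among the details not given in the sources used here, so the windows below were drawn on GENCODE vM21 (GRCm38), which held 12060 of the 12107 gene names, against 11805 for RefSeq. Id1 lies on chromosome 2, plus strand, at 152736251 to 152737410, where both annotations have the same start. Id4 lies on chromosome 13, plus strand, at 48261228 to 48266026, and its promoter window, at 48260828 to 48261328, holds the RefSeq start as well. Id2 lies on chromosome 12, minus strand, at 25093799 to 25097140 in GENCODE, whose start belongs to a longer transcript. The RefSeq start of Id2, at 25096092, lies 1048 bases further downstream, inside the gene body window, and 948 bases past the last base of the promoter window. Id3 lies on chromosome 4, plus strand, at 136143497 to 136145755, and its RefSeq start, at 136143822, again falls in the gene body window, 225 bases past the promoter window. With these windows, signal at the RefSeq starts of Id2 and Id3 is counted in the gene body. Across all genes, the 567 whose GENCODE start lay 300 or more bases upstream of the RefSeq start had a median of 312 promoter reads over the 6 libraries, against 818 in the 4703 genes whose starts lay within 20 bases of each other. The 1661 genes whose GENCODE start lay 300 or more bases downstream had a median of 656. The median was thus lower where the starts differed in either direction. Antisense genes limit Id4: its promoter and gene body windows overlap A330033J07Rik and the lincRNA Gm49291, both on the minus strand, and ChIP reads carry no strand of transcription. The windows of Id1, Id2 and Id3 overlap no other GENCODE gene.

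**Figure D1:**
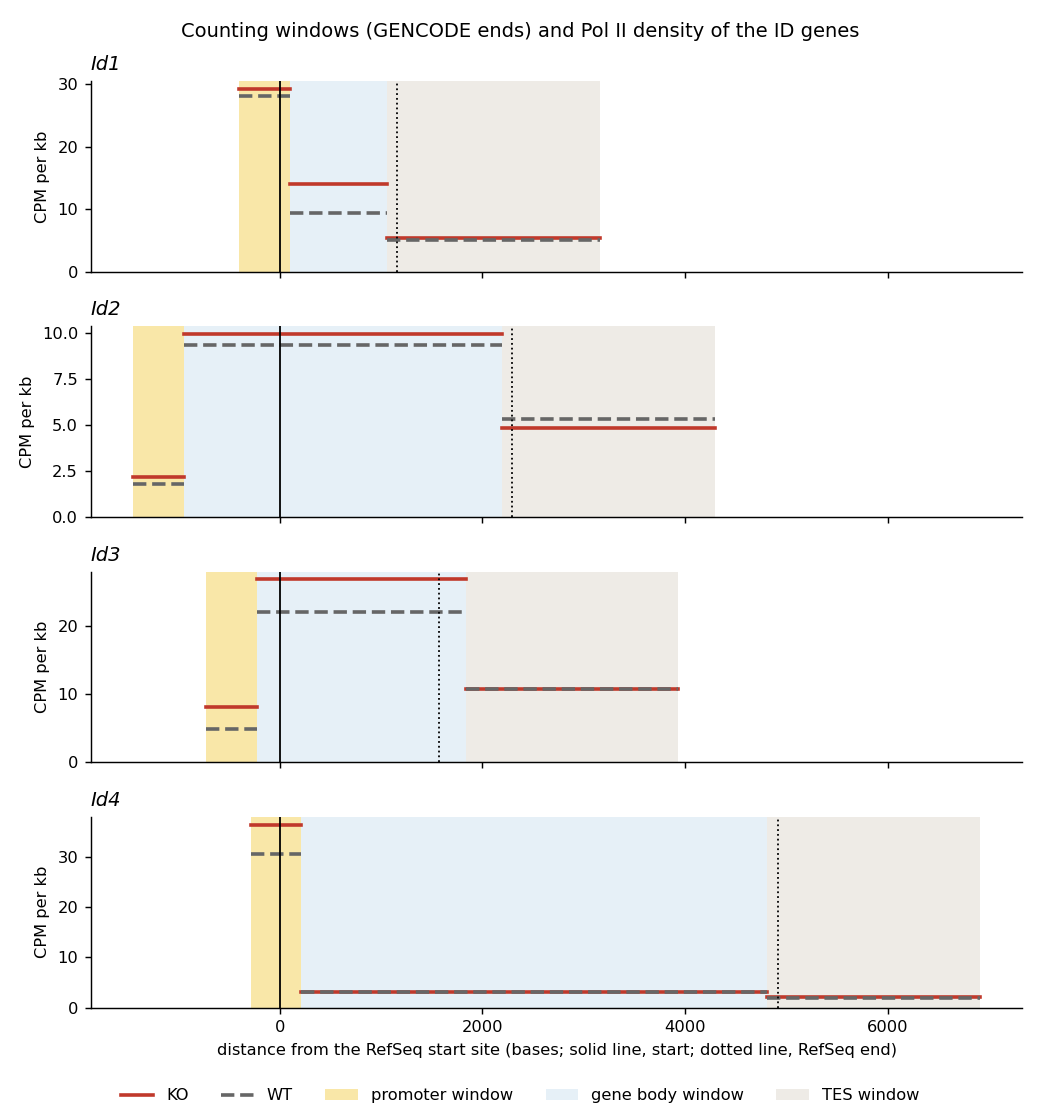
Counting windows of the 4 ID genes on GENCODE ends, placed by distance in bases from the RefSeq start (solid vertical line), with the mean Pol II density in CPM per kilobase of window in KO (red, solid) and WT (grey, dashed) NPCs, 3 libraries each. The promoter windows of Id2 and Id3 end 948 and 225 bases before the RefSeq start, while those of Id1 and Id4 contain it.

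The promoters of Id2, Id3 and Id4 were found among the RefSeq promoter sequences (GRCm38.p6), which run from 250 bases before to 50 bases after the RefSeq start. The sequences of Id4 and Id2 are shown because they stand on opposite sides of the window problem: the Id4 stretch lies entirely in the promoter window and the Id2 stretch entirely in the gene body window. Each is limited to the part before the RefSeq start and outside any GENCODE exon of the gene. Capitals mark CCAAT boxes (CCAAT, or ATTGG on the other strand) and a GC-rich SMAD-binding motif (GGCGCC, which reads the same on both strands). Positions are counted backwards from -1, the base before the start.
Id4, chr13:48260866-48261115, plus strand, positions -250 to -1: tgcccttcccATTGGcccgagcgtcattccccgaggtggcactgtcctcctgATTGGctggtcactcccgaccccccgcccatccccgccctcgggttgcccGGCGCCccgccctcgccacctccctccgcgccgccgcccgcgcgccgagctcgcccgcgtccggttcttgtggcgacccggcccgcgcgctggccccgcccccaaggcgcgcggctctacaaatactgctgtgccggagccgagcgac
Id2, chr12:25096254-25096342, minus strand, positions -250 to -162: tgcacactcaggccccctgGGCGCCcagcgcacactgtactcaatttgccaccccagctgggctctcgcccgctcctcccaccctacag
GGCGCC was present at -148 to -143 in Id4 and at -231 to -226 in Id2, and 11.9% of 32851 RefSeq promoters of the same length hold it. CCAAT boxes numbered 2 in Id4, at -240 to -236 and -198 to -194, and 3 in the whole Id2 promoter, of which the nearest to the start was at -76 to -72, and 37.4% of promoters hold at least 1. The Id3 promoter held the short SMAD box (GTCTG, or CAGAC on the other strand) at -167 to -163 and at -68 to -64, a motif present in 49.6% of promoters. An E-box (CANNTG, both strands alike), the element bound by bHLH dimers, was present only in Id2 among the 3, as CAGCTG at -196 to -191, and 72.3% of promoters hold one. Neither TATAAA (13.6% of promoters, either strand) nor the cyclic AMP response element TGACGTCA (1.79%) was in any of the 3. None of these matches overlapped another. The GC content of the promoters was 73.3% in Id4, 63.3% in Id2 and 60.0% in Id3, against a median of 52.7% over all promoters. A match of letters is a description of the sequence and not a measurement of binding.

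The libraries held 25199455, 19748346 and 16056262 region reads in KO replicates 1, 2 and 3, and 18863084, 23808344 and 14528870 in WT replicates 1, 2 and 3. The ID genes took 8095, 3641 and 1956 of these in KO, and 4813, 4806 and 1380 in WT. Values below are CPM (read counts scaled to a common depth by the trimmed mean of M values, TMM). Pair 3 stood apart, with 6.88% (KO) and 6.04% (WT) of its reads in promoters, against 11.0% to 12.2% in the other KO libraries and 10.9% to 11.2% in the other WT libraries. Regions of Y chromosome genes summed to 124 to 145 CPM (unscaled) in the KO libraries and to 234, 197 and 0.619 in WT replicates 1, 2 and 3, so WT replicate 3 stood apart in this too. In pair 3, the KO culture thus had Y chromosome signal and the WT culture almost none. Within that pair, this difference and genotype cannot be told apart. The neural precursor markers Sox2 and Nes had signal in every library, with 8.64 to 38.4 CPM in KO and 7.88 to 37.1 CPM in WT on the Sox2 gene body, and 43.9 to 73.4 CPM in KO and 38.8 to 60.3 CPM in WT on that of Nes.

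Pol II was abundant on the gene bodies of the family, and where on the gene it was counted differed between them. Per kilobase of window, the gene body of Id3 had 26.9 CPM in KO and 22.1 in WT, above 99.7% of all gene bodies. The gene body densities of the others were 14.1 in KO and 9.37 in WT for Id1 (above 98.8%), 9.95 in KO and 9.32 in WT for Id2 (98.2%), and 3.18 in KO and 3.04 in WT for Id4 (87.2%). Library by library, this order held in 6 of 6 for Id3 over Id1, in 5 of 6 for Id1 over Id2 and in 6 of 6 for Id2 over Id4. The percentages are ranks among gene bodies of all lengths, and the gene body windows of Id3 and Id2 hold the RefSeq start. In promoters the order differed: Id4 had 36.3 CPM per kilobase in KO and 30.6 in WT (above 94.6% of promoters), Id1 had 29.2 in KO and 28.1 in WT (90.5%), Id3 had 8.16 in KO and 4.86 in WT (30.7%), and Id2 had 2.20 in KO and 1.81 in WT (7.35%). Id4 and Id1, above one another in 4 and 2 of the 6 libraries, did not separate in this order. Id4 and Id1 were thus promoter-loaded by these windows, with 33.2% to 60.3% and 31.5% to 44.0% of each library's reads on the gene. The promoter held 1.58% to 5.26% of the reads of Id2 and 2.29% to 7.34% of those of Id3, the pair of genes whose RefSeq start lies in the gene body window. Past the end, TES density was 10.8 in KO and 10.7 in WT for Id3, 5.39 in KO and 5.16 in WT for Id1, 4.85 in KO and 5.34 in WT for Id2, and 2.17 in KO and 1.93 in WT for Id4.

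Between KO and WT NPCs, none of the 12 ID gene regions passed the test (limma-voom blocked on the replicate pair, adjusted p under 0.1 by the Benjamini-Hochberg method over all regions). Over all 36321 regions 49 passed, or 0.135%. This count was 0 without the replicate block, and 11 to 546 when a pair or a library was left out, with 546 without KO replicate 1, 545 without WT replicate 1 and 11 without pair 2. It was 143 without KO replicate 2 and 51 without WT replicate 2. By kind of region, 0.173% of promoters, 0.206% of gene bodies and 0.0248% of TES regions passed the main test. At an unadjusted limma p under 0.05, 3 of the 12 were higher in KO (the Id1 gene body, the Id3 promoter and the Id3 gene body) and none was lower. The same threshold with KO higher was met by 4.82% of all gene bodies, 7.55% of promoters and 1.40% of TES regions. It was met by 15.9% of gene bodies under 5000 bases, a class that holds all 4 ID genes. The edgeR quasi-likelihood test and DESeq2 also called none of the 12 (DESeq2 gave no adjusted p for 3 of them, at low counts). The groups overlapped in all 12 regions. Estimates above 0 were found for 4 of 4 gene bodies, 4 of 4 promoters and 2 of 4 TES regions, with medians of 0.17, 0.19 and 0.01 on the log2 scale, beside medians of -0.01, 0.03 and -0.08 over all gene bodies, promoters and TES regions. An estimate above 0 was also found for 67.8% of gene bodies under 5000 bases and 54.8% of all promoters. Of the directions of the 12 ID gene regions, that of the Id1 promoter turned with the deposited log2 values, and that of the Id3 TES region with no block and with each kind of region fitted on its own. When a pair or a library was left out, the estimate changed sign in 6 of 9 fits for the Id4 gene body and the Id1 TES region, and in 3 of 9 for the Id2 gene body, the Id1 and Id2 promoters and the Id2 and Id3 TES regions. These 9 fits are not separate checks, because with the pair as a block a library without its partner adds little to the estimate. The counts of regions that passed did differ between leaving out a pair and leaving out 1 of its libraries. The Id1 gene body estimate was 0.476 without pair 1, 0.471 without KO replicate 1 and 0.472 without WT replicate 1. In bulk cultures, a change in the share of a cell type and a change of Pol II per cell cannot be told apart.

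**Figure D2:**
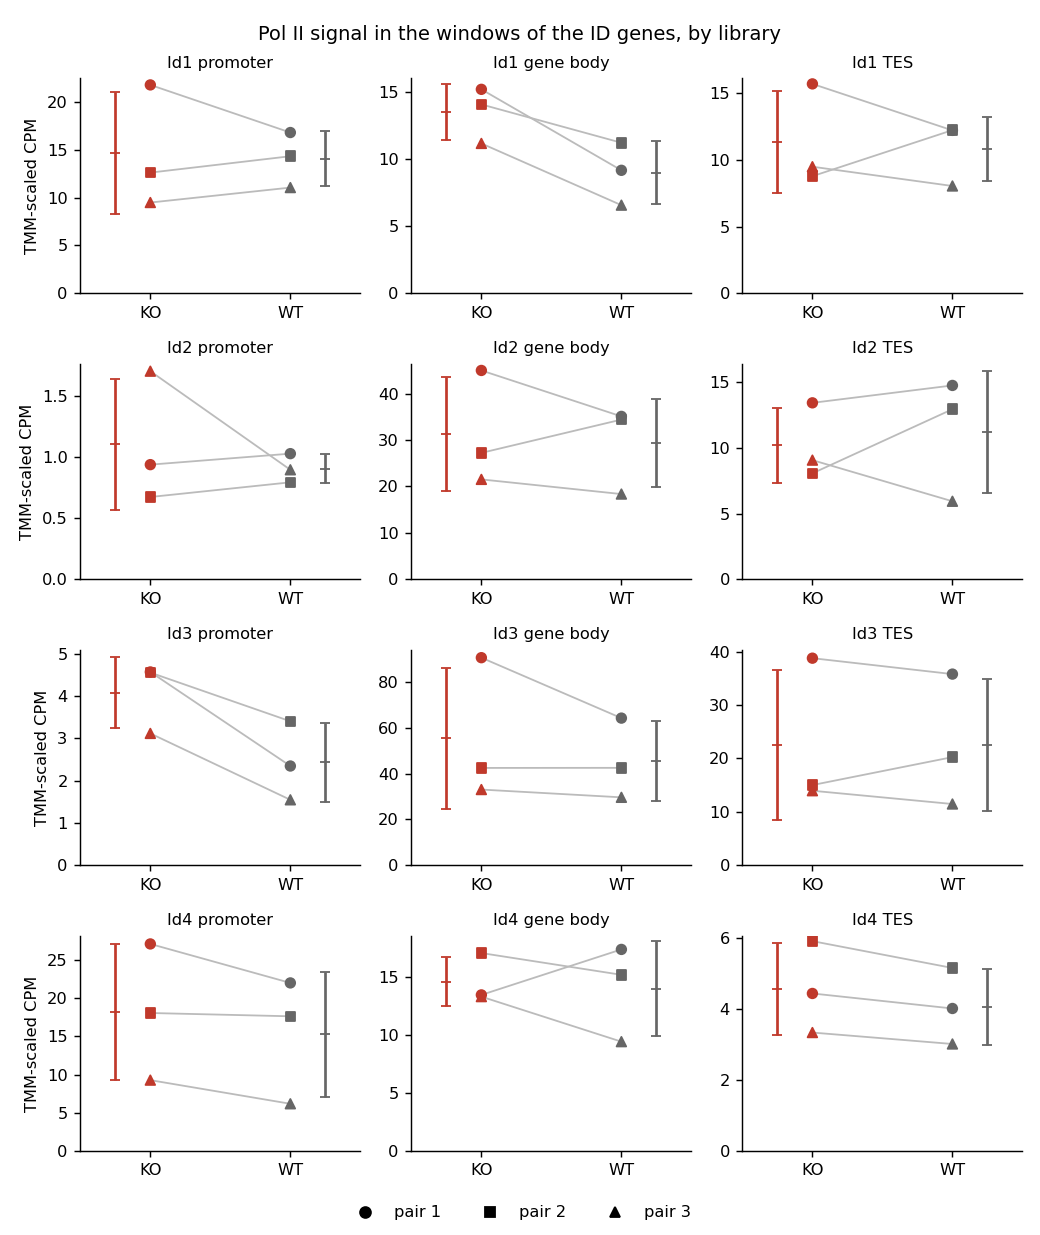
TMM-scaled CPM in the promoter, gene body and TES window of each ID gene, with KO libraries on the left and WT libraries on the right of each panel. Lines join the 2 libraries of a pair, marker shapes give the pair, and the outer bars are mean ± SD (n = 3). The ranges of the KO and WT libraries overlap in all 12 panels, and the KO library lies above its WT partner in 3 of 3 pairs for the Id1 gene body, the Id3 promoter, the Id4 promoter and the Id4 TES region.

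Id1, a BMP target with a role in keeping neural stem cells undifferentiated, had the gene body difference of smallest p in the family. Its gene body had 15.2, 14.1 and 11.2 CPM in KO replicates 1, 2 and 3, against 9.18, 11.2 and 6.58 CPM in WT replicates 1, 2 and 3. KO was higher in 3 of 3 pairs, and the lowest KO library lay just below the highest WT library, so that the groups met but hardly overlapped. The means were 13.5 ± 2.08 CPM in KO and 9.00 ± 2.33 CPM in WT (SD, n = 3 each), a log2 fold change of 0.57 ± 0.14 (SE; 95% interval 0.28 to 0.87), or 1.49-fold with an interval of 1.21 to 1.83. The limma p was 0.00103 before adjustment and 0.220 after it, at rank 73 among gene bodies. The promoter of Id1 showed no common direction. It had 21.8, 12.6 and 9.49 CPM in KO and 16.8, 14.3 and 11.0 CPM in WT, with KO higher in pair 1 only, and a log2 fold change of 0.07 ± 0.14 (interval -0.23 to 0.36, limma adjusted p = 0.926). The TES region, with 15.7, 8.78 and 9.49 CPM in KO and 12.2, 12.2 and 8.04 CPM in WT, was likewise without a common direction, at 0.05 ± 0.16 (interval -0.31 to 0.40, limma adjusted p = 0.962).

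Id3, a close relative of Id1 that is often expressed with it, gave the promoter estimate farthest from 0 in the family, at low counts. The promoter window held 127, 95 and 44 reads in KO, or 4.57, 4.56 and 3.12 CPM, against 48, 86 and 19 reads in WT, or 2.34, 3.40 and 1.54 CPM. KO was again higher in 3 of 3 pairs, while the lowest KO library lay below the highest WT library. Means were 4.08 ± 0.836 CPM in KO and 2.43 ± 0.933 CPM in WT (SD, n = 3 each), a log2 fold change of 0.72 ± 0.21 (interval 0.28 to 1.17), or 1.65-fold (1.21 to 2.25), with a limma p of 0.00390 before and 0.340 after adjustment. On the gene body, Id3 had 90.8, 42.5 and 33.1 CPM in KO and 64.4, 42.6 and 29.7 CPM in WT. Replicate 1 was far above the other libraries in both genotypes, and pair 2 was level. The log2 fold change was 0.26 ± 0.10 (interval 0.06 to 0.47, limma adjusted p = 0.492), and it was 0.06 without pair 1. The TES region, with 38.8, 15.0 and 13.9 CPM in KO and 35.8, 20.3 and 11.5 CPM in WT, had -0.02 ± 0.12 (interval -0.29 to 0.24, limma adjusted p = 0.976).

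Id2, which is best known for restraining differentiation downstream of several growth signals, showed no common direction in any window. Its gene body had 45.0, 27.2 and 21.5 CPM in KO and 35.1, 34.4 and 18.4 CPM in WT. KO was higher in pairs 1 and 3 and lower in pair 2, and the log2 fold change was 0.08 ± 0.12 (interval -0.19 to 0.34, limma adjusted p = 0.905). The TES region had 13.4, 8.06 and 9.06 CPM in KO and 14.7, 12.9 and 5.93 CPM in WT, at -0.17 ± 0.18 (interval -0.56 to 0.21, limma adjusted p = 0.831). The promoter window held only 26, 14 and 24 reads in KO and 21, 20 and 11 in WT, or 0.936, 0.671 and 1.70 CPM in KO and 1.03, 0.791 and 0.894 CPM in WT. At this depth the interval of its log2 fold change, 0.14 ± 0.34, ran from -0.60 to 0.88.

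Id4, which differs from the others in holding back the other ID proteins as well as bHLH factors and in its link to neural precursor proliferation, had the highest mean promoter signal of the family. Its promoter had 27.1, 18.1 and 9.27 CPM in KO and 22.0, 17.6 and 6.17 CPM in WT. Pair 1 was highest and pair 3 lowest in both genotypes, and within pairs KO was higher in 3 of 3, with a log2 fold change of 0.24 ± 0.12 (interval -0.01 to 0.49, limma adjusted p = 0.629). The gene body had 13.5, 17.1 and 13.3 CPM in KO and 17.4, 15.2 and 9.42 CPM in WT, with KO lower in pair 1 and a log2 fold change of 0.03 ± 0.15 (interval -0.29 to 0.34, limma adjusted p = 0.976). The TES region had 4.43, 5.90 and 3.33 CPM in KO and 4.00, 5.14 and 3.01 CPM in WT, at 0.17 ± 0.17 (interval -0.20 to 0.53, limma adjusted p = 0.831). In the promoter and gene body windows, reads of the overlapping antisense genes could not be separated from those of Id4.

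**Figure D3:**
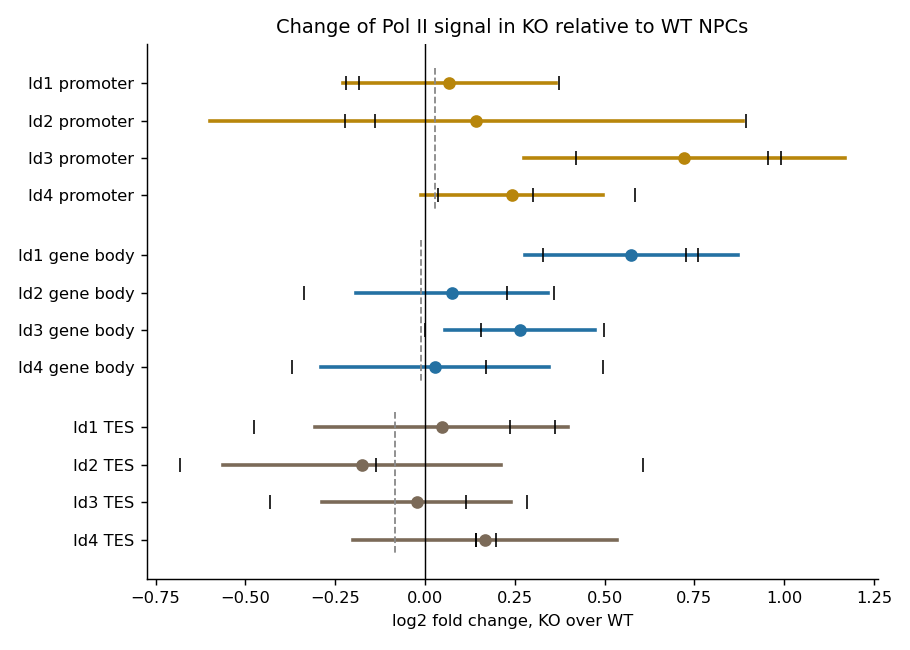
Log2 fold change of Pol II signal, KO over WT, for the 12 ID gene regions (points) with the 95% interval of limma-voom (bars) and the value of each of the 3 pairs (black ticks). Dashed lines mark the median of all regions of that kind. The intervals of the Id3 promoter (0.28 to 1.17), the Id1 gene body (0.28 to 0.87) and the Id3 gene body (0.06 to 0.47) lie above 0, and none of the 12 passes after adjustment.

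The counts of consistent pairs were read against those of all genes. A gene body was higher in KO in 3 of 3 pairs for 1 of the 4 ID genes (Id1), against 13.7% of all gene bodies. This held for 2 of 4 promoters (Id3 and Id4), against 18.0% of all promoters, and for 1 of 4 TES regions (Id4), against 7.86%. An unadjusted p under 0.05 with KO higher was met by 2 of 4 gene bodies (background 4.82%), 1 of 4 promoters (7.55%) and 0 of 4 TES regions (1.40%). All 4 ID gene bodies are under 5000 bases, and the 1469 gene bodies of that length, taken as a description, had a median log2 fold change of 0.10, 67.8% were higher in KO, 15.9% met the unadjusted threshold on that side, and 32.5% were higher in 3 of 3 pairs. Among these short genes, the estimate lay at the percentile 95.0 for Id1, 78.8 for Id3, 45.8 for Id2 and 36.5 for Id4. Gene bodies of 50000 bases or more had a median of -0.04. The part that length plays in the estimates of the ID genes was not tested.

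The distribution of Pol II along the genes gave no call either. It was taken as the ratio of promoter to gene body read counts, which differs from the pausing index of the study in that counts are not divided by window length and the gene body stops before the TES. The promoter to gene body ratio of Id1 was 1.43, 0.895 and 0.849 in KO and 1.83, 1.27 and 1.67 in WT. It was lower in KO in 3 of 3 pairs, although the highest KO value lay above the lowest WT value. The log2 change was -0.62 ± 0.21 (interval -1.08 to -0.15, limma adjusted p = 0.342). For Id3 the ratio was 0.0505, 0.108 and 0.0952 in KO and 0.0368, 0.0804 and 0.0534 in WT, a log2 change in the other direction of 0.57 ± 0.21 (interval 0.11 to 1.03, limma adjusted p = 0.368), with its RefSeq start inside the gene body window. Id4 had 2.01, 1.06 and 0.698 in KO and 1.27, 1.16 and 0.657 in WT, and its change was 0.21 ± 0.21 (limma adjusted p = 0.767). The change of Id2 was 0.09 ± 0.27 (limma adjusted p = 0.933), so 0 of 4 ratios were called, against 0.0331% of all genes tested. For the TES to gene body ratio, 0 of 4 were called, against 0.00828% of genes. That of Id1 was again lower in KO in 3 of 3 pairs, with 1.03, 0.623 and 0.849 in KO and 1.33, 1.09 and 1.22 in WT. The shares of all genes with either ratio lower in KO in 3 of 3 pairs were not computed. Its log2 change was -0.57 ± 0.18 (interval -0.97 to -0.16, limma adjusted p = 0.564), and those of the others lay between -0.23 and 0.06. Both ratios of Id1 share the gene body count in which KO was higher, and are no separate measurement of it.

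Levels of the ID gene regions also differed between the pairs. Averaged over both genotypes, the Id4 promoter was 1.69 log2 units higher in pair 1 than in pair 3, the Id3 TES region 1.56, the Id3 gene body 1.29 and the Id2 gene body 1.00. Gene bodies under 5000 bases as a whole were 0.38 log2 units higher in pair 1 than in pair 3, and promoters 0.80. The range over the 3 pairs exceeded the genotype estimate in all regions but the Id1 gene body, where it was 0.55 against 0.57. A range from the highest to the lowest pair tends to exceed a single difference between groups. The comparison therefore does not show whether pair or genotype varied more. The difference between pair 1 and pair 3 on the gene body was at the percentile 97.1 of short gene bodies for Id3 and 90.7 for Id2, and at 55.4 and 54.7 for Id1 and Id4. Pair 3 is also the pair with the low promoter share, and WT replicate 3 had the lowest value of the 6 libraries in all 4 gene bodies. The part of these library differences in the levels of the ID genes was not tested.

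**Figure D4:**
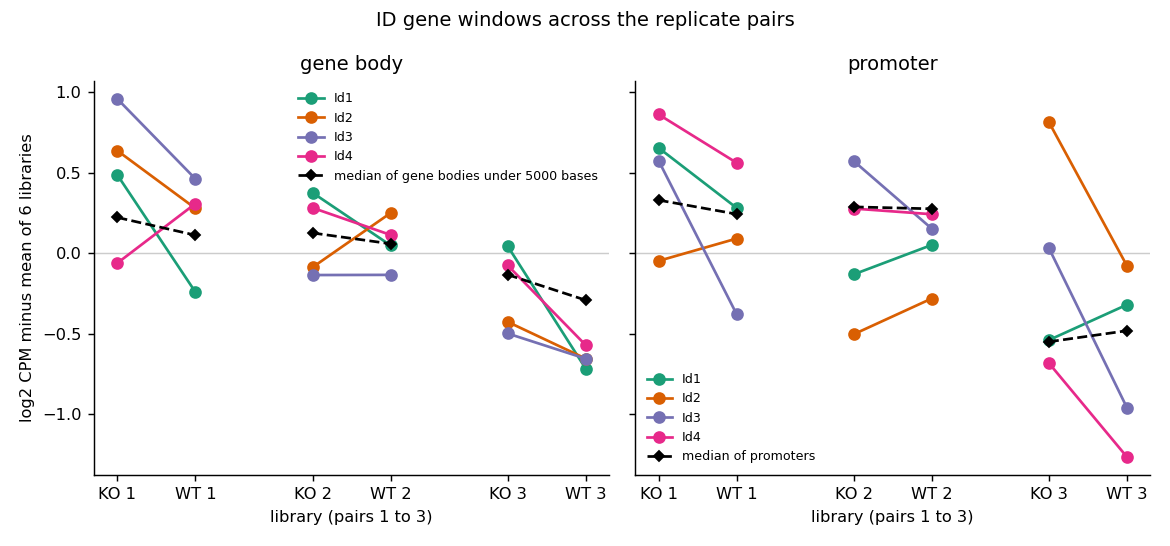
Log2 CPM of each ID gene in each library, minus the mean of the 6 libraries, for gene bodies (left) and promoters (right), with KO left of WT in each pair. Black diamonds are the median of gene bodies under 5000 bases (left) or of all promoters (right). Id3 and Id2 gene bodies and Id4 and Id1 promoters are high in pair 1 and low in pair 3.

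Likeness of the gene body pattern over the 6 libraries was measured as the root mean square difference of centred log2 CPM, among 11749 gene bodies, and is a description of libraries that share depth and pair effects. The nearest to Id1 were Ndufa11 (0.0953), Tob1 (0.105) and Jund (0.110), against a median of 0.514 over all gene bodies. Likeness was taken over both genotypes, so genes near Id1 share its difference between KO and WT by selection. Their log2 fold changes are thus no separate result. Ndufa11 had 0.44 (limma adjusted p = 0.456) and Tob1, an antiproliferative gene, 0.59 (limma adjusted p = 0.101). Jund, which encodes a component of the transcription factor AP-1, had 0.56 and passed the test (limma adjusted p = 0.0730). Of the genes nearest to the other ID genes none passed, with a lowest limma adjusted p of 0.672. The nearest to Id2 were Slc25a4 (0.0576), Nab2 (0.0902) and Trmt112 (0.103). For Id3 they were Aldoc (0.106), Rgcc (0.113) and 3110082J24Rik (0.117), and for Id4 Hsbp1 (0.0919), Zrsr1 (0.0983) and Ttpal (0.105). Among the ID genes, Id2 and Id3 were most alike (0.221), with Id2 at rank 85 from Id3. Id1 and Id4 differed by 0.329, and Id3 and Id4, the least alike, by 0.497. No ID gene was among the 3 nearest gene bodies of another.

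Upstream of the ID genes, no member of the BMP pathway lists passed the test in any region. Of 9 ligand genes listed under BMP, which include GDF genes, 3 were measured. Whether each of the 3 acts on the ID genes was not tested. Bmp7, a ligand made in the developing forebrain, had 89.6, 66.2 and 107 CPM on the gene body in KO and 67.3, 61.2 and 105 CPM in WT, higher in 3 of 3 pairs at 0.19 ± 0.08 (limma adjusted p = 0.555). Gdf11 had -0.10 ± 0.10 and Gdf6 -0.11 ± 0.14. Of 9 extracellular or membrane antagonists, 8 were measured, 5 of them with an estimate above 0 and a gene body median of 0.09. Fst, which encodes follistatin, had 0.33 ± 0.16, Chrdl1 had -0.21 ± 0.14 and Bambi had 0.24 ± 0.16 (limma adjusted p = 0.629, 0.729 and 0.733). The 6 of 7 receptors measured had a median of -0.02, with Acvr1 at -0.08, Bmpr1b at -0.05 and Acvr2b at -0.06. The 8 SMAD pathway genes, the receptor-activated, common-mediator and inhibitory SMADs with their ligases, had a median of 0.03. There Smurf1, a ligase that removes SMADs, had -0.09 ± 0.07, Smad5 0.06 ± 0.07 and Smurf2 0.05 ± 0.06. Smad6 and Smad7, feedback inhibitors that BMP signalling itself induces, stood at 0.04 ± 0.08 and 0.02 ± 0.09. All of these medians lie beside that of -0.01 over all gene bodies.

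Downstream, the partners of the ID proteins were followed in the same way, again with no call. Of the 3 E proteins, Tcf3 had 59.9, 51.7 and 54.4 CPM on the gene body in KO and 63.8, 55.6 and 50.3 CPM in WT, at -0.05 ± 0.07 (limma adjusted p = 0.905). Tcf12 had 569, 397 and 548 CPM in KO and 675, 393 and 543 CPM in WT, at -0.09 ± 0.05 (limma adjusted p = 0.708). In its TES region Tcf12 had 13.1, 6.38 and 7.43 CPM in KO and 20.1, 9.38 and 10.3 CPM in WT, lower in 3 of 3 pairs at -0.57 ± 0.13 without passing (limma adjusted p = 0.166). Tcf4 was not analysed here. Of 14 tissue-restricted bHLH activators 6 were measured, 5 of them with an estimate above 0 and a median of 0.07 on the gene body. Olig1, of the oligodendrocyte lineage, had 91.4, 21.1 and 32.0 CPM in KO and 90.4, 15.1 and 26.0 CPM in WT, higher in 3 of 3 pairs at 0.17 ± 0.10, with overlapping groups (limma adjusted p = 0.678). Its neighbour in lineage, Olig2, had 165, 41.4 and 41.8 CPM in KO and 186, 35.2 and 47.4 CPM in WT, at -0.08 ± 0.08 (limma adjusted p = 0.844). Both OLIG genes were highest in pair 1 in both genotypes, as Id2 and Id3 were. The neuronal Neurod2 had 0.19 ± 0.19. Of the 4 genes of ID protein turnover, Cdc20 and Fzr1 encode activators of the anaphase-promoting complex, and Usp1 with its cofactor Wdr48 removes ubiquitin from ID proteins. Cdc20 had 0.41 ± 0.18, Wdr48 -0.17 ± 0.08 and Fzr1 -0.13 ± 0.09 (limma adjusted p = 0.578, 0.598 and 0.725).

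**Figure D5:**
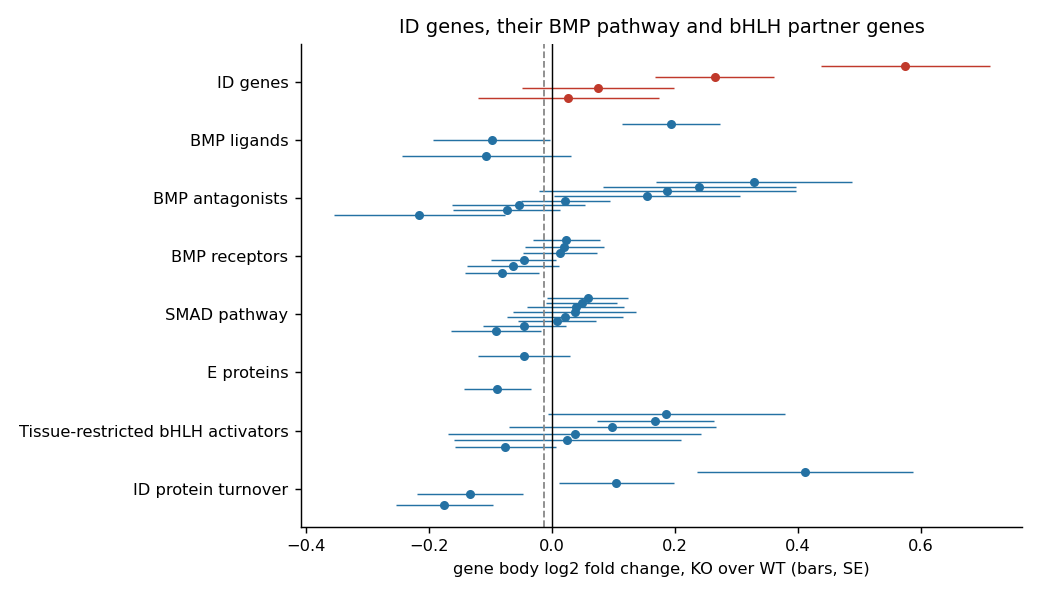
Gene body log2 fold changes, KO over WT, of the 4 ID genes (red) and of the measured members of the pathway and partner lists (blue), with SE bars. The dashed line is the median of all gene bodies (-0.01). Id1 (0.57) has the value farthest from 0, and no gene shown passes the adjusted threshold.

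Markers of cell types were read beside these values. Of 8 neuronal markers, 6 were measured. They had a promoter median of 0.32 and a gene body median of 0.14. Their summed gene body signal was 794 to 865 CPM in KO and 714 to 925 CPM in WT, most of it from Map2, the member of highest density. On the gene body 3 of the 6 were higher in KO at an unadjusted p under 0.05 (background 4.82%), and none passed, with a lowest limma adjusted p of 0.175. These were Elavl3 (0.32 ± 0.07), Gad2 (0.24 ± 0.09) and Tubb3 (0.26 ± 0.10), while Map2 had -0.05 ± 0.05, Dcx -0.09 ± 0.13 and Stmn2 0.04 ± 0.09, all but Map2 named after their values were seen. Of 8 precursor markers, 7 were measured, with a gene body median of -0.04. Sox2 stood at -0.05 ± 0.10, Nes at 0.19 ± 0.08 and Fabp7, the member of highest density, at -0.04 ± 0.09 (limma adjusted p = 0.935, 0.551 and 0.925). The astrocyte (3 of 6 measured, Slc1a3 the densest at 0.00 ± 0.06) and endothelial and mural lists (2 of 8 measured, Cspg4 the densest at 0.08 ± 0.07) had gene body medians of 0.00 and 0.02, and of the mesenchymal (6 genes) and the microglia and blood cell (7 genes) lists 0 had a row in the counts used here. The part of cell composition in the ID gene values was not tested.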

How the data were processed

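By the labels and the methods of the study, the authors immunoprecipitated POLR2A through its N-terminal domain, and trimming, alignment and peak tools named in the submitters' notes include Trimmomatic, BWA, Picard and MACS2 (GRCm38/mm10). The authors counted reads per gene region with HOMER, removed genes without signal in KO, and deposited the counts and log2 CPM values (TMM, voom). Here the deposited counts were tested with limma 3.58.1 (voom, TMM from edgeR 4.0.16, R 4.3.3) over all regions. No spike-in or input was used here, so values are relative to each library. Ratios used log2 of counts plus 0.5 where both regions averaged 10 counts or more, in limma with a trend. Whole-table alternatives were no replicate block, the edgeR quasi-likelihood test, DESeq2 1.42.0, other scaling, a low-count filter, each region kind alone, the deposited log2 values and leaving out pairs or libraries. Deviations from the group mean correlated within pairs at 0.56 to 0.88, with the pairing taken from the study's methods and the replicate numbers of the labels. Scripts were tested on simulated data. P-values of the main tests rest in part on the spread of the KO to WT difference over the 3 pairs, since the block takes out the level of each pair. In limma, the spread of each region is also moderated with that of all regions in the fit. The p-values therefore do not measure the spread over the 3 pairs of a region alone. The members and gene lists were chosen with earlier results of these data known. Named were the ID genes, the E proteins, up to 3 members per pathway list with the smallest gene body p, Sox2, Nes, the densest member per marker list, and the 3 gene bodies most like each ID gene (mean of at least 100 counts), plus Smad6, Smad7 and 5 neuronal markers added after their values were seen. Densities use GENCODE window lengths. A pair of list genes is not reported here and was left out of the list counts.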

Additional observations from a re-analysis of the deposited data

How the results depend on the processing

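The count of 0 ID gene regions passing the limma-voom test was the same in all 16 alternatives, with a lowest adjusted p of 0.213 over the 7 alternatives of method and 0.159 over the 9 that left out a pair or a library. For the ratios it was likewise 0 under all 12 alternatives each. The 9 fits that left out a pair or a library are not separate checks. With the pair as a block, leaving out a library gave nearly the same estimate as leaving out its pair. Over all regions, 49 passed by limma-voom with the pair as a block, 0 without the replicate block, 51 by edgeR, 59 by DESeq2, 85 with each kind of region on its own, 33 with the deposited log2 values and 11 to 546 when a pair or a library was left out. DESeq2 gave no adjusted p for some ID gene regions of low count.

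Estimates kept their direction in all alternatives for the Id1 gene body (0.47 to 0.75 when pairs or libraries were left out), the Id3 promoter (0.57 to 0.98), the Id3 gene body (0.06 to 0.43, lowest without WT replicate 1), the Id4 promoter (0.18 to 0.38) and the Id4 TES region (0.13 to 0.18). The Id3 TES estimate turned to 0.00612 without the replicate block and to 0.0531 with each kind of region on its own, and the Id1 promoter to -0.00975 with the deposited log2 values. When a pair or a library was left out, the estimates ran over 0 for the Id1 promoter (-0.20 to 0.21) and TES region (-0.21 to 0.33), the Id2 promoter (-0.17 to 0.34), gene body (-0.16 to 0.34) and TES region (-0.38 to 0.11), the Id3 TES region (-0.19 to 0.16) and the Id4 gene body (-0.10 to 0.28). The same held for the promoter to gene body ratio of Id2 (-0.19 to 0.39) and Id4 (-0.0229 to 0.38) and the TES to gene body ratio of Id2 (-0.42 to 0.0175) and Id4 (-0.16 to 0.27). The cause was not tested. Depth limits the Id2 promoter, with 11 to 26 reads in a library and an interval of -0.60 to 0.88.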
